A study of Saccharomyces cerevisiae SK1 with 28 samples.

Results

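Proximal single-gene summits are the ChIP-seq peak summits of this yeast series that lie at most 250 bp upstream of a gene and in the promoter window of that gene alone. They number 177 of the 1055 summits listed in the 14 ChIP tables, a share of 16.8%, and they belong to 89 of 561 listed genes. They were chosen by position: a summit qualified when its peak name appeared with 1 promoter window and when the window's gene-side end was at most 250 bp away. Another 565 summits had 1 window but lay farther from the gene, and 313 summits lay in more than 1 window, mostly between divergently transcribed genes. Distance and the number of windows are therefore what chose these summits, and both are given here as description.

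The series profiled wild-type SK1, a budding yeast strain that sporulates efficiently, in 7 states with 2 ChIP libraries each. The states were growing cells treated with DTT, cells 6 h and 21 h after their move from rich YPD medium to BYTA (premeiotic starvation), cells 5.5 h, 6 h 45 min or 8 h after their move to sporulation medium, and untreated vegetative cells in exponential growth in YPD. All were wild type, were grown at 30 °C and were fixed in 1% formaldehyde for 15 min. The immunoprecipitated protein, the dose and duration of DTT, the control used for calling peaks and the rule by which summits were listed were not given in the sources used here. The 14 input libraries were not analysed here.

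The unfolded protein response (UPR) of yeast is a signalling pathway from the endoplasmic reticulum (ER) to the nucleus. Unfolded proteins in the ER activate the kinase and nuclease Ire1, which starts the splicing of HAC1 mRNA, and the Hac1 transcription factor made from it binds promoters of genes for ER chaperones, oxidative folding, glycosylation and vesicle traffic. DTT, which reduces disulfide bonds, is the standard laboratory trigger of this response. Yeast promoters are compact, and the sites bound by transcription factors commonly lie close upstream of the coding sequence, in a stretch with few nucleosomes.

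The libraries differed widely in how much they listed, and this limits what can be compared. The DTT libraries listed 296 and 245 summits, those of 6 h in BYTA 277 and 91, and those of 21 h 22 and 23. The sporulation libraries listed 4 and 18 summits at 5.5 h, then 9 and 13 at 6 h 45 min and 10 and 16 at 8 h, and the vegetative libraries 18 and 13. Replicate 1 at 5.5 h and replicate 2 at 6 h in BYTA had far fewer summits than the other library of their state. The tables give no read depth, and a gene without a listed summit is not shown to be unbound.

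The limit of 250 bp cuts through a continuous distribution of distances. Proximal summits lay 34 to 250 bp upstream, with a median of 194 bp. In steps of 50 bp there were 8, 12, 21, 54 and 82 single-gene summits up to the limit, and 81 and 80 in the next 2 steps beyond it. Single-gene summits were thus few in the 150 bp next to a gene and about equally frequent from 200 bp to 550 bp. Just inside the limit stood SIM1, TGL2 and YPD1 at 249 bp and RPS4A and YLR168C at 250 bp. Just outside stood MDJ1, at 253 and 254 bp in the libraries of 21 h in BYTA and at 251 bp in replicate 2 of 5.5 h in sporulation medium, and SVS1 and POR1 at 253 and 254 bp with DTT.

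**Figure D1:**
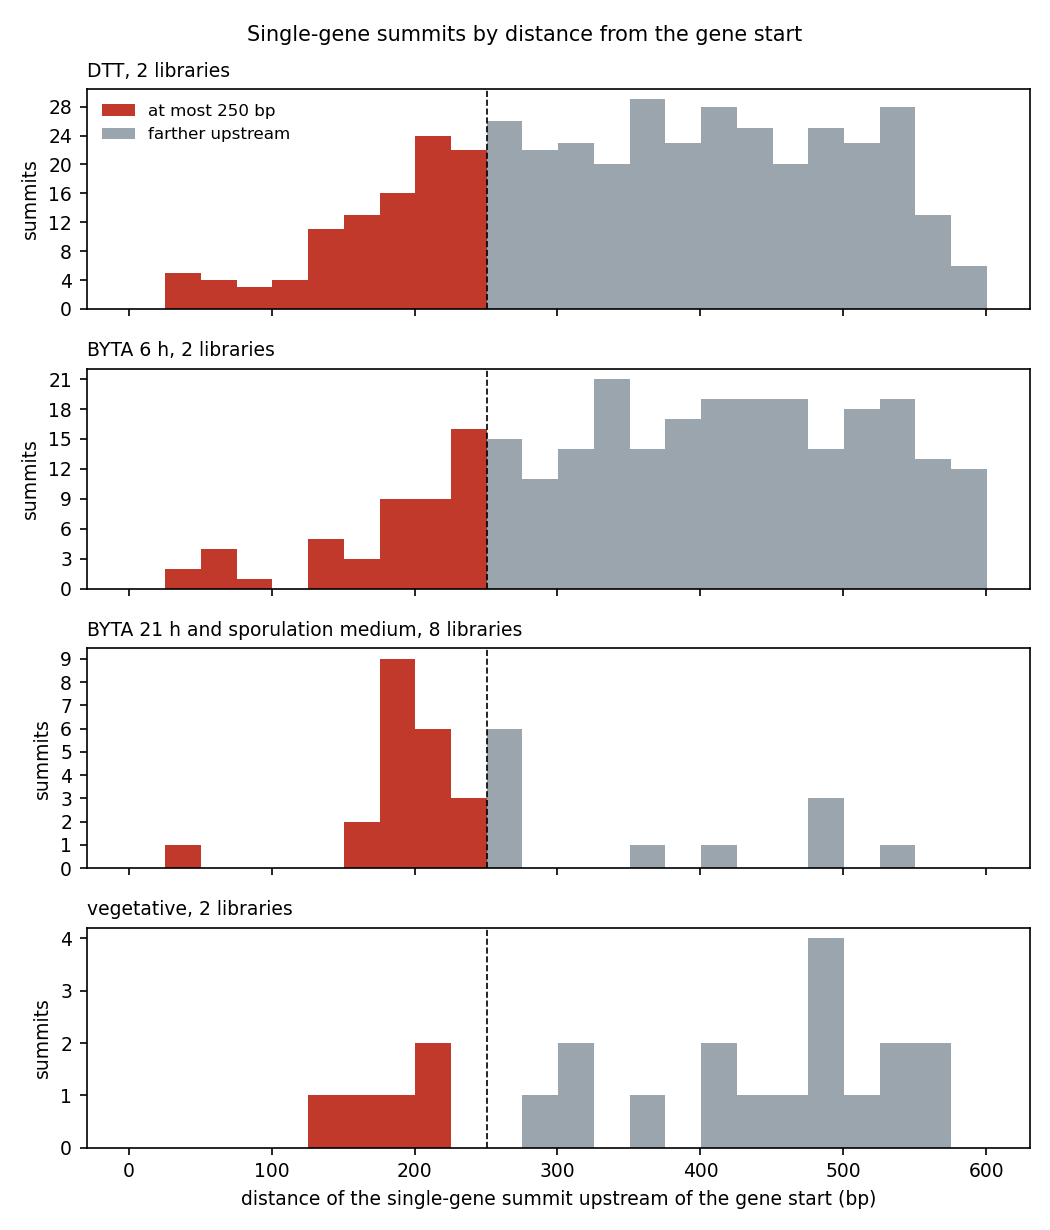
Number of single-gene summits (y axis) against their distance upstream of the gene start in bp (x axis, 25 bp bins) for DTT, 6 h in BYTA, the 8 libraries of 21 h in BYTA and sporulation medium, and vegetative cells. Red bars lie within the 250 bp limit (dashed line) and grey bars beyond it. With DTT and at 6 h in BYTA the limit divides a distribution without a gap, while 21 of 33 single-gene summits of the 8 later libraries lie within it.

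Counted per library, proximal summits were 61 and 41 with DTT, 40 and 9 at 6 h in BYTA, and 4 and 6 at 21 h. The sporulation libraries had 1 and 4 at 5.5 h, then 1 and 1 at 6 h 45 min and 1 and 3 at 8 h, and the vegetative libraries had 3 and 2. As a share of listed summits this was 18.7% ± 2.74 with DTT (SD, n = 2), and in BYTA it was 12.2% ± 3.22 at 6 h and 22.1% ± 5.59 at 21 h (SD, n = 2 each). In sporulation medium it was 23.6% ± 1.96 at 5.5 h, then 9.40% ± 2.42 at 6 h 45 min and 14.4% ± 6.19 at 8 h, and 16.0% ± 0.907 in vegetative cells (SD, n = 2 each).

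Differences between states in this share did not pass the threshold of 0.05. States accounted for 76.7% of the sum of squares over the 14 libraries (exact permutation test over 135135 groupings, p = 0.0556), and 2 libraries against 2 cannot give a two-sided exact p below 0.333. It passed with a limit of 300 bp (82.5%, exact permutation test, p = 0.0274), and without replicate 1 at 21 h in BYTA or either library of 8 h in sporulation medium (84.0% to 85.6%, exact p 0.0235 to 0.0324). It did not pass with a limit of 200 bp (49.5%, exact permutation test, p = 0.394), with scores of at least 500 (46.2%, exact p = 0.442) or with the replicate number as a block (exact p = 0.104). Random groupings of libraries also put part of the sum of squares between groups, so each percentage is to be read with its p. The short lists leave each share wide. The exact 95% Clopper-Pearson interval of replicate 1 at 5.5 h was 0.631% to 80.6%, against 16.1% to 25.7% for replicate 1 with DTT. These intervals cover counting error only. The labels do not say whether replicates are separate cultures, so the test measures only the spread between these libraries, which may be technical.

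The later states differed from the others in another way, which concerns shared windows. In the 8 libraries of 21 h in BYTA and sporulation medium, 82 of 115 summits (71.3%) lay in more than 1 window, compared with 23.7% of 541 with DTT, 25.5% of 368 at 6 h in BYTA and 29.0% of 31 in vegetative cells. Of the single-gene summits that remained, 50.0% and 66.7% were proximal at 21 h in BYTA, and 50.0% to 100% in each sporulation library. The same shares were 26.9% and 22.04% with DTT, 19.3% and 13.4% at 6 h in BYTA, and 23.1% and 22.2% in vegetative cells. This denominator was chosen after seeing the data, so these shares are given as description only. The permutation test was also run on them, but its outcome counts as no support, since the same data prompted it. The later libraries hold 33 single-gene summits in all, and their 21 proximal ones come from 7 genes, of which HSH49 alone gave 8. Taken to the nearest gene whether or not the window was shared, 60.0% of summits in these 8 libraries lay within 250 bp. This compared with 30.3% with DTT, 23.4% at 6 h in BYTA and 41.9% in vegetative cells. The pooled 71.3% and 60.0% count the same promoters again in each library. TPM1, MRPS17 and MBF1, for example, had summits in shared windows in all 8, so these summits are not independent.

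**Figure D2:**
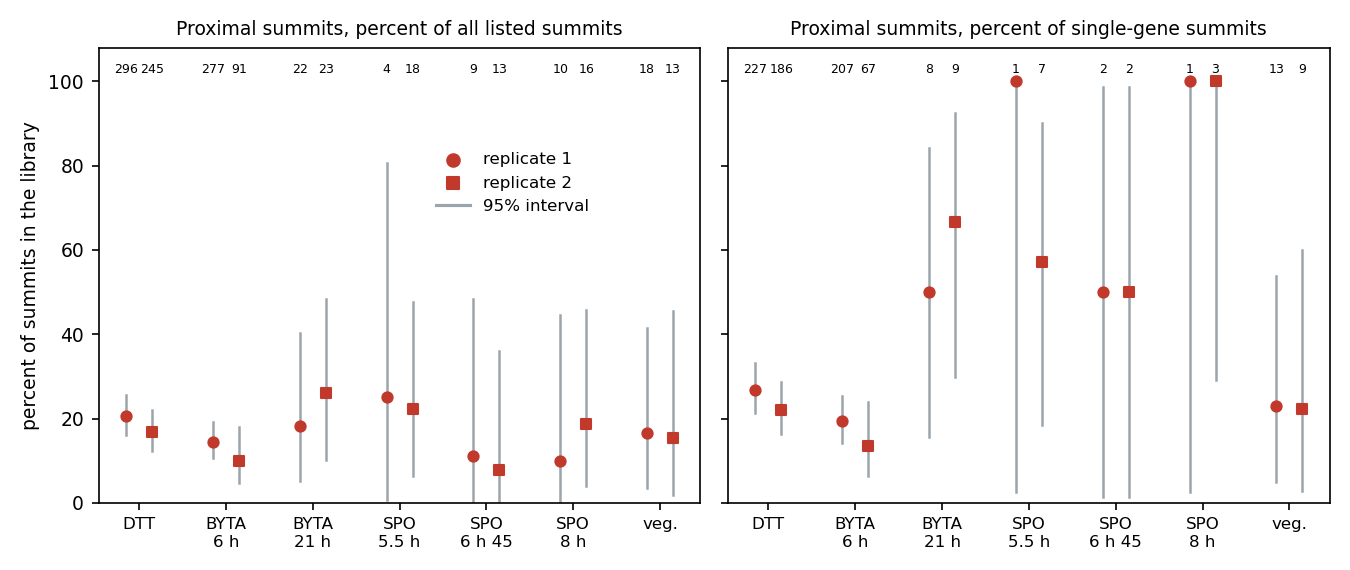
Percent of summits that are proximal in each library (y axis), of all listed summits (left) and of single-gene summits only (right), by state. Circles are replicate 1, squares replicate 2, grey lines exact 95% intervals for counting error, and the numbers at the top are the summits in the denominator. The states overlap on the left, with shares of 7.69% to 26.1%, while on the right the 8 libraries of 21 h in BYTA and sporulation medium lie at 50.0% or above and the other 6 at 26.9% or below, on denominators of 1 to 9 summits in the later libraries.

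Scores are the authors' own values for each summit, of a type that the tables do not name, and were used here only to rank summits within a library. On a scale where 100 is the highest-scoring summit of a library, the proximal summits had median percentiles of 38.7 and 46.3 with DTT, against 52.2 and 51.2 for all other summits of the same libraries. At 6 h in BYTA the medians were 41.9 and 50.0 for proximal and 51.1 and 50.0 for other summits. Proximal summits stood lower in 5 of the 6 states that could be compared, and higher in vegetative cells, where replicate 1 gave 58.3 against 47.2. The values of 5.5 h and 8 h in sporulation medium and of vegetative cells rest on 1 library each, with 4, 3 and 3 proximal summits. HSH49, HAS1 and YPL260W are among those of 21 h in BYTA, 5.5 h and 8 h, so the states are not fully independent. The mean difference over states was -10.9 percentile points (SD 13.0, n = 6 states), which is smaller than the spread between states (exact two-sided sign-flip permutation test, p = 0.125, smallest possible 0.0312). The direction was not stable. Against single-gene summits farther upstream alone the difference was 7.09 points in the other direction (exact permutation test, p = 0.375), and with a limit of 200 bp, where only 2 states could be compared, it was 1.17 (exact p = 1).

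Proximal summits were present at both ends of the lists. Of the 30 best-scoring summits of each library, 7 and 7 were proximal with DTT and 7 and 3 at 6 h in BYTA. Of the whole lists, proximal summits made up 20.6% and 16.7% with DTT, and 14.4% and 9.89% at 6 h in BYTA. The best-scoring summit of all in replicate 1 at 6 h in BYTA was proximal, at PEX18, and the next was proximal as well, at the unnamed gene SK1_16G04420. At the other end, 24 of the 61 proximal summits of DTT replicate 1 were in the lowest 25% of its list, and 10 of 41 in replicate 2. At 6 h in BYTA these were 14 of 40 in replicate 1 and 1 of 9 in replicate 2.

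**Figure D3:**
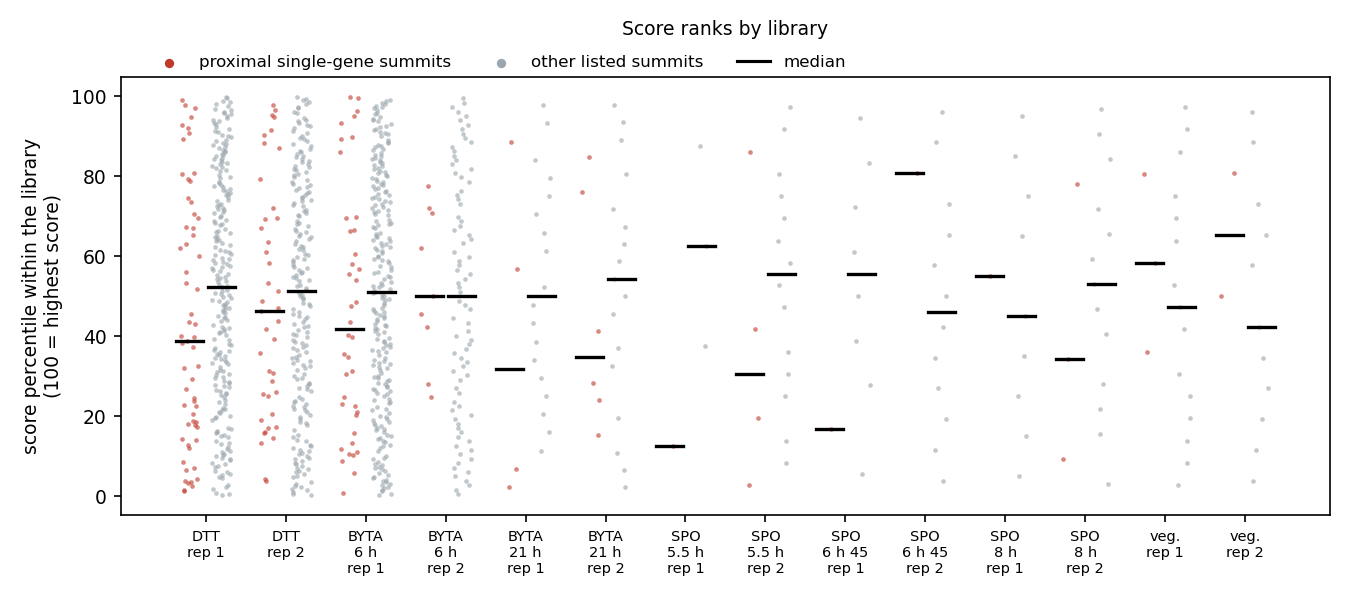
Score percentile within the library (y axis, 100 is the highest score) of proximal single-gene summits (red) and all other listed summits (grey) in each of the 14 libraries, with black bars at the medians. With DTT the proximal medians of 38.7 and 46.3 lie below those of the other summits, 52.2 and 51.2, but single proximal summits span 1.18 to 99.2 and 3.88 to 97.8. They span 0.903 to 99.8 in replicate 1 at 6 h in BYTA and 24.7 to 77.5 in replicate 2.

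A summit was counted as found again when the other library of its state had any summit within 100 bp, and the difference between proximal and other summits was within the spread between states. With DTT, 38 of 61 proximal summits of replicate 1 (62.3%) were found again in replicate 2, against 191 of 235 other summits (81.3%). From replicate 2, 39 of 41 proximal summits (95.1%) were found again, against 190 of 204 others (93.1%). At 6 h in BYTA the shares were 20.0% of 40 proximal and 32.5% of 237 other summits from replicate 1, and 8 of 9 proximal and 77 of 82 other summits from replicate 2. Over the same 6 states, with the limits given for the ranks, the difference was -4.85 percentage points (SD 14.1). It did not pass (exact two-sided sign-flip permutation test, p = 0.469). Against single-gene summits farther upstream alone it was 12.7 in the other direction (exact p = 0.25). The 23 proximal summits of DTT replicate 1 that were not found again were low-ranking, with a median rank of 243 among 296, against 106.5 for those found again. In replicate 1 at 6 h in BYTA, 32 of 40 were not found again. Their median rank was 186 among 277 and their best 11, against a median of 24 for those found again. The ranks of other summits not found again were not computed, so this is not shown to be particular to proximal summits.

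Where both libraries of a state listed a gene with a proximal summit, the positions were close. The 36 such genes with DTT had replicate summits a median of 6.5 bp apart (range 1 to 81 bp), and 30 of them lay within 20 bp. At 6 h in BYTA the 9 genes had a median gap of 11 bp (range 0 to 135 bp). Other summits were about as close. By class in replicate 1, genes listed in both DTT libraries had median gaps of 7 bp for proximal, 8 bp for farther single-gene and 4 bp for shared summits. At 6 h in BYTA these were 11, 9 and 8 bp. Genes whose summits crossed the limit between replicates, such as HOC1 and SIM1 with DTT, are not among the 36. Over all libraries, 46 genes had proximal summits in 2 or more, and the whole range of positions was at most 20 bp for 36 of them. It exceeded 50 bp for 4, FTR1, DFR1, MSP1 and SK1_15G04280.

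Genes with a proximal summit in both libraries numbered 36 with DTT, of which 34 are among the 6021 protein-coding genes of the RefSeq R64 annotation (0.565%). There were 9 at 6 h in BYTA (8 of the protein-coding genes, 0.133%), 3 at 21 h (0.0498%), 1 at each time in sporulation medium (0.0166% each) and 2 in vegetative cells (0.0332%). In either library, 66 genes were proximal with DTT (64 of the protein-coding genes, 1.06%), 40 at 6 h in BYTA (38 of them, 0.631%) and 7 at 21 h (0.116%). In sporulation medium these were 4 genes at 5.5 h (0.0664%), 1 gene after 6 h 45 min (0.0166%) and 3 genes after 8 h (0.0498%), and in vegetative cells 3 genes (0.0498%). Of the 89 genes, 43 were proximal in 1 library, 22 in 2, 12 in 3, 9 in 4, 2 in 5 and 1 in 8 libraries. Of the 89, 76 had no listed summit of another kind, but 31 of these were listed in 1 library only and could show no other. Of the 58 genes listed in 2 or more libraries, 45 were proximal in each of them. Of the 18 farther summits of the others, 16 lay within 300 bp.

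ERO1, which encodes the ER thiol oxidase that recharges protein disulfide isomerase, led the genes proximal in both DTT libraries. Its promoter window (SK1_13G00030, YML130C) spans positions 7765 to 8364 of chromosome XIII on the minus strand. The summit lay 140 and 136 bp upstream with DTT, at ranks 3 and 12, and 133 and 136 bp upstream at 6 h in BYTA, at ranks 29 and 50. The other 10 libraries did not list it. TSA1, encoding a thioredoxin peroxidase, followed with summits 231 and 236 bp upstream with DTT (rank 9 in each library) and 229 and 244 bp upstream at 6 h in BYTA (ranks 14 and 35). Its window (SK1_13G00980) covers positions 202196 to 202795 of chromosome XIII, plus strand.

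MCD4, PMT2 and SEC53, all in the list of glycosylation and GPI anchors, were among the 10 best with DTT. MCD4 encodes an ethanolamine phosphate transferase of GPI anchor synthesis, and its window spans positions 147442 to 148041 of chromosome XI. Its summits lay 146 and 143 bp upstream with DTT, at ranks 7 and 24, and 150 and 161 bp upstream at 6 h in BYTA, at ranks 19 and 46. PMT2, encoding a protein O-mannosyltransferase, had summits 208 and 209 bp upstream with DTT and 209 bp upstream in both libraries of 6 h in BYTA. These 4 summits fell within 1 bp of each other. SEC53, encoding the phosphomannomutase that feeds GDP-mannose synthesis, was proximal 150 and 160 bp upstream with DTT, at ranks 32 and 6, and was listed in no other state.

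The remaining genes among the 10 best with DTT were IRC15, SK1_16G04420, YET2, FTR1 and YNL234W. IRC15, which encodes a microtubule-associated protein, had summits 161 and 163 bp upstream with DTT and 160 and 178 bp upstream at 6 h in BYTA. YET2, encoding a member of the BAP31-like family of ER membrane proteins, was proximal 236 and 244 bp upstream with DTT alone. SK1_16G04420, which the tables give no gene name, had summits 54 and 47 bp upstream with DTT and 55 and 51 bp upstream at 6 h in BYTA. It ranked 24 and 21 with DTT, and 2 and 27 at 6 h in BYTA.

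PEX18 and FTR1 stood high at 6 h in BYTA. PEX18 encodes a co-receptor for import of proteins into peroxisomes, and its window covers positions 414247 to 414846 of chromosome VIII, minus strand. Its summits lay 34 and 37 bp upstream with DTT at ranks 91 and 103, 50 and 51 bp upstream at 6 h in BYTA at ranks 1 and 26, and 34 bp upstream in replicate 1 at 21 h at rank 21 of 22. No single-gene summit of the series lay nearer to a gene start than these 34 bp, which CRN1, the gene of coronin, shared in DTT replicate 2. FTR1, encoding the high-affinity iron permease, had the most spread positions, 110 and 191 bp upstream with DTT and 38 and 173 bp upstream at 6 h in BYTA. Its ranks were 57 and 51 with DTT, and 11 and 21 at 6 h in BYTA.

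DTT and 6 h in BYTA shared 24 genes with a proximal summit in either library, which is 36.4% of the 66 with DTT and 60.0% of the 40 at 6 h in BYTA. Of those in both libraries, 8 were shared, 22.2% of 36 and 88.9% of 9. In any position, 39 of the 66 genes with DTT were not listed at 6 h in BYTA, and 12 of the 40 were not listed with DTT. The same counts were not made for all 383 genes listed with DTT and all 355 at 6 h in BYTA. Of all listed genes, 42.8% with DTT and 40.3% at 6 h in BYTA were listed in no other state. These shares take in every other state, so they are not a matched comparison for the overlap. Without a matched comparison, the overlap is not shown to be particular to proximal genes. The shared 8 were ERO1, FTR1, IRC15, MCD4, PEX18, PMT2, TSA1 and SK1_16G04420, and the remaining gene at 6 h in BYTA was HHT2. Both positions lie within 250 bp by the choice of genes. At these 24 genes the difference in position between the states had a median size of 11 bp, 18 were within 20 bp and 1 was over 50 bp. Genes whose summits crossed the limit are not among them, such as PGA2, at 193 bp in DTT replicate 1 and 474 bp in replicate 1 at 6 h in BYTA.

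The standing of shared genes within their lists differed between these states, and the lists are of unequal length, so percentiles are given as description only. For EUG1, HIS1 and STE24 the value with DTT is the mean of both libraries, and that at 6 h in BYTA is replicate 1 alone. EUG1, a homologue of protein disulfide isomerase, had percentiles of 75.1 with DTT and 10.3 at 6 h in BYTA. HIS1, the gene of the initial enzyme of histidine synthesis, had 56.3 with DTT and 8.84 at 6 h in BYTA, and STE24, encoding a membrane protease, had 52.4 with DTT and 10.6 at 6 h in BYTA. FTH1 and HSP78, listed in replicate 1 alone in both states, stood the other way round. The vacuolar iron transporter gene FTH1 had 8.61 with DTT and 56.9 at 6 h in BYTA, and the mitochondrial disaggregase gene HSP78 had 6.59 with DTT and 54.0 at 6 h in BYTA.

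HHT2, a histone H3 gene, lay on either side of the limit. With DTT its summits lay 267 and 289 bp upstream, at ranks 65 and 41, and were not proximal. At 6 h in BYTA they lay 208 and 241 bp upstream, at ranks 85 and 69, and were. In R64 its upstream neighbour is the divergent histone gene HHF2, which 0 of the 14 tables name. The tables put HHT2 on the plus strand, while its systematic name, YNL031C, marks the minus strand. It was the 1 gene of 87 with such a mismatch, so its distances are to the start that the tables give, and whether the window belongs to HHT2 was not tested. At POR1, PRB1 and YPD1 too, summits lay between 254 and 278 bp upstream with DTT and were proximal in replicate 1 at 6 h in BYTA, at 138, 246 and 249 bp.

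**Figure D4:**
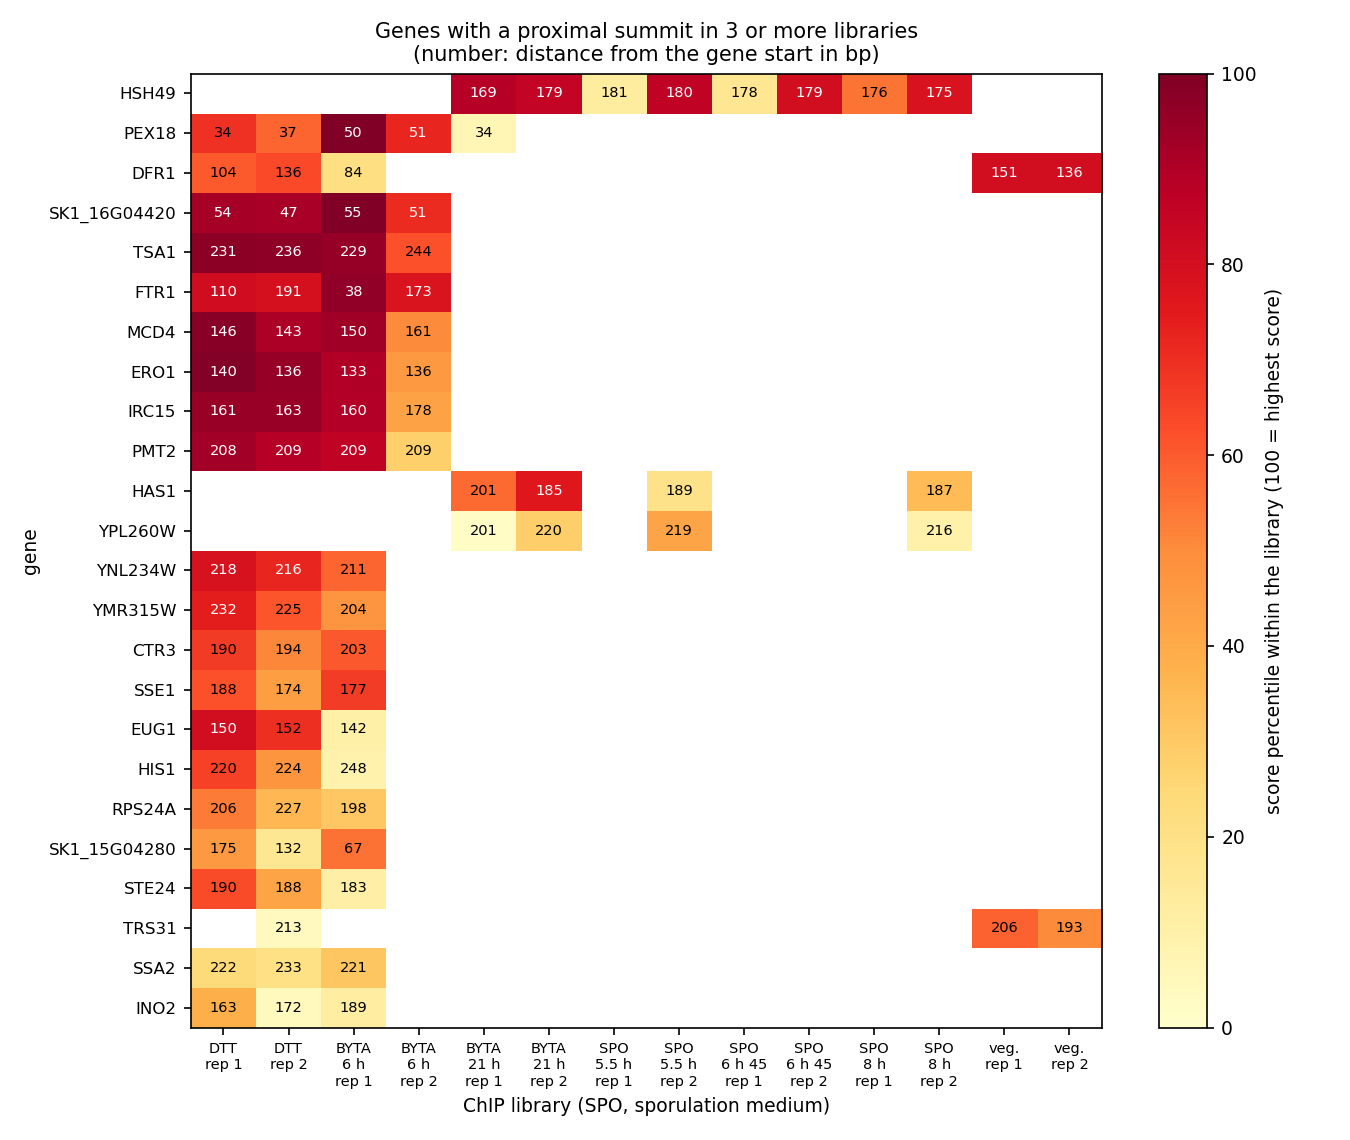
Genes with a proximal summit in 3 or more libraries (y axis) by library (x axis). Colour is the score percentile within the library (100 is the highest score), the number in a cell is the distance from the gene start in bp, and an empty cell means no proximal summit. HSH49 fills all 8 libraries of 21 h in BYTA and sporulation medium, with distances of 169 to 181 bp, while 20 genes are proximal in both DTT libraries and at least 1 library of 6 h in BYTA.

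Proximal summits of the later states came from 7 genes. HSH49, which encodes a subunit of the U2 snRNP complex SF3b of the spliceosome, was proximal in 8 libraries, more than any other gene. These were all 8 libraries of 21 h in BYTA and sporulation medium, and none of the other 6 listed it. Its window (SK1_15G04290, YOR319W) spans positions 882704 to 883303 of chromosome XV on the plus strand. Summits lay 169 and 179 bp upstream at 21 h in BYTA, 181 and 180 bp at 5.5 h in sporulation medium, 178 and 179 bp at 6 h 45 min, and 176 and 175 bp at 8 h. The ranks were 3 of 22 and 4 of 23 at 21 h in BYTA, 4 of 4 and 3 of 18 at 5.5 h, 8 of 9 and 3 of 13 at 6 h 45 min, and 5 of 10 and 4 of 16 at 8 h.

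The DNA next to HSH49 was listed in other states, but for its neighbour. SK1_15G04280 is transcribed away from HSH49, with 815 bases between the 2 gene starts, and its window spans positions 882489 to 883088. It was proximal 175 and 132 bp upstream with DTT and 67 bp upstream in replicate 1 at 6 h in BYTA. The summits of the 2 genes were 460 to 580 bp apart, and neither gene's summits fell in the 385 bases that the windows share. The same intergenic stretch thus carried listed summits near one gene with DTT and at 6 h in BYTA, and near the other at 21 h in BYTA and in sporulation medium.

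HAS1 and YPL260W each had a proximal summit in 4 later libraries. HAS1 encodes an RNA helicase of ribosome assembly, and its window covers positions 823845 to 824444 of chromosome XIII. Its summits lay 201 and 185 bp upstream at 21 h in BYTA, 189 bp in replicate 2 at 5.5 h and 187 bp in replicate 2 at 8 h in sporulation medium. YPL260W, named CUB1 in RefSeq, had summits 201 and 220 bp upstream at 21 h in BYTA, 219 bp in replicate 2 at 5.5 h and 216 bp in replicate 2 at 8 h. Neither gene was in the other 4 sporulation lists, nor in any list of DTT, 6 h in BYTA or vegetative cells.

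The other genes had a proximal summit in 1 or 2 of these libraries. PSD1, encoding phosphatidylserine decarboxylase, which makes phosphatidylethanolamine in mitochondria, had a summit 235 bp upstream in replicate 2 at 21 h in BYTA and in replicate 2 at 5.5 h. SMT3, the gene of the ubiquitin-like protein SUMO, had one 206 bp upstream in replicate 2 at 21 h. With DTT and in replicate 1 at 6 h in BYTA, SMT3 summits lay 398 to 402 bp upstream and in a shared window. MOT2, encoding the ubiquitin ligase of the Ccr4-Not complex, was proximal at 247 bp in replicate 2 at 21 h and lay at 266 and 260 bp, just beyond the limit, in replicate 1 at 21 h and replicate 2 at 5.5 h. Together with PEX18 in 1 library, these made up the 7 genes. Lists of DTT and of 6 h in BYTA also held PEX18 and SMT3, and the other 5 were listed in these later libraries only.

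In vegetative cells 3 genes had a proximal summit, DFR1, TRS31 and NAT2. DFR1 encodes dihydrofolate reductase, and its window covers positions 750815 to 751414 of chromosome XV. Its summits lay 104 and 136 bp upstream with DTT at ranks 119 and 90, 84 bp upstream in replicate 1 at 6 h in BYTA at rank 219, and 151 and 136 bp upstream in vegetative cells at ranks 4 of 18 and 3 of 13. TRS31, encoding a subunit of the TRAPP tethering complex of vesicle traffic, had a summit 213 bp upstream in DTT replicate 2 at rank 236 of 245, and summits 206 and 193 bp upstream in vegetative cells. NAT2 was listed 208 bp upstream in vegetative replicate 1 and in no other library.

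Some genes had a proximal summit in 1 state only. Of the 66 genes with DTT, 41 were proximal in no other state, and 38 (57.6%) were listed in no other state in any position, against 164 of all 383 genes listed with DTT (42.8%). At 6 h in BYTA 16 of 40 were proximal in no other state, and 12 (30.0%) were listed in no other, against 143 of all 355 listed genes (40.3%). At 21 h in BYTA 2 genes were proximal in no other state and 0 of the 7 were listed in no other, against 8 of all 46. In vegetative cells 1 gene, NAT2, was listed in no other state, against 4 of all 25, and in sporulation medium there were 0 such genes. The states with longer lists had more such genes, and the part of list length in this was not tested.

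By function, the proximal genes were set against 20 lists of genes for pathways of the ER, stress, metabolism and meiosis, which were drawn up with earlier results of these data known. Over all lists, 33 of 152 listed members had a proximal summit (21.7%), compared with 15.8% of all 551 listed protein-coding genes and 1.44% of the 6021 in the genome, of which 9.15% were listed at all. Counted in both libraries of a state, 16 of the 152 listed members had one (10.5%), compared with 39 of all 551 listed protein-coding genes (7.08%).

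ER protein folding had 3 proximal genes among 10 listed of 21 in the list. They were ERO1, described above, EUG1 and SCJ1. EUG1 had summits 150 and 152 bp upstream with DTT at ranks 58 and 75, and 142 bp upstream in replicate 1 at 6 h in BYTA at rank 249 of 277. SCJ1, encoding an ER J-domain cochaperone, had 1 summit 71 bp upstream in DTT replicate 1 at rank 224 of 296. The other 7 listed members, ERJ5, JEM1, KAR2, LHS1, MPD1, PDI1 and SIL1, had summits in shared windows, and 2 KAR2 summits with DTT had 1 window but lay farther upstream.

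Genes for glycosylation and GPI anchors had 5 proximal members among 10 listed of 53. MCD4, PMT2 and SEC53 are given above. DPM1, encoding dolichol phosphate mannose synthase, had summits 74 and 73 bp upstream with DTT at ranks 97 and 126, and PMT3, another protein O-mannosyltransferase gene, 103 bp upstream in DTT replicate 1 at rank 284. Of these, 4 were proximal in both DTT libraries and 2 in both libraries of 6 h in BYTA. Outside the lists, and chosen after their values were seen, SEC59 and NUS1, which encode dolichol kinase and a subunit of the prenyltransferase of dolichol synthesis, had summits 160 and 143 bp upstream in DTT replicate 1 at ranks 179 and 229.

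ER to Golgi traffic had 4 proximal members among 5 listed of 33. They were ERP2, a p24 family gene, the cargo receptor gene ERV29, the coatomer gene RET2 and the COPII coat gene SFB3. ERP2 had summits 180 and 184 bp upstream with DTT, at ranks 62 and 76. The other 3 were listed in DTT replicate 1 alone, 76, 81 and 95 bp upstream, at the low ranks of 289, 261 and 292 of 296. In ER-associated degradation, DER1 had 1 summit 246 bp upstream in DTT replicate 1 at rank 254, and it was the 1 proximal gene of 2 listed. For UPR signalling, translocation into the ER and ergosterol synthesis the numbers were 0 of 1, 0 of 3 and 0 of 5 listed.

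Phospholipid synthesis and ER shape had 3 proximal members of 7 listed, YET2, PSD1 and INO2. INO2, which encodes an activator of phospholipid genes and is also in the list of transcription regulators, had summits 163 and 172 bp upstream with DTT at ranks 183 and 235, and 189 bp upstream in replicate 1 at 6 h in BYTA at rank 245. For iron and copper uptake 4 of 13 listed genes were proximal, FTR1, FTH1, the copper transporter gene CTR3 and the siderophore transporter gene SIT1. CTR3 had summits 190 and 194 bp upstream with DTT and 203 bp upstream in replicate 1 at 6 h in BYTA. FTH1 had summits 221 bp upstream in DTT replicate 1 and 234 bp upstream in replicate 1 at 6 h in BYTA, and SIT1 had 1 summit, 219 bp upstream in replicate 1 at 6 h in BYTA.

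Cytosolic and mitochondrial heat shock had 5 proximal members of 12 listed. SSE1, encoding an Hsp110 chaperone, had summits 188 and 174 bp upstream with DTT at ranks 113 and 138, and 177 bp upstream in replicate 1 at 6 h in BYTA at rank 93. SSA2, a cytosolic Hsp70 gene, had summits 222 and 233 bp upstream with DTT and 221 bp upstream in replicate 1 at 6 h in BYTA. HSP78 was listed in replicate 1 of both states, at 247 bp with DTT and 236 bp at 6 h in BYTA, and HSC82 and HSP42 at 196 and 238 bp in replicate 1 at 6 h in BYTA alone. Replicate 2 at 6 h in BYTA, with its 91 summits, listed none of the 5 with a proximal summit.

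Ribosomal protein genes had 4 proximal members among 9 listed of 132. RPS24A had summits 206 and 227 bp upstream with DTT and 198 bp in replicate 1 at 6 h in BYTA, while RPL22A and RPS4A each had 1 summit with DTT and RPL6A had 1 with DTT and 1 at 6 h in BYTA. General stress and peroxide defence had TSA1 alone among 9 listed, and amino acid synthesis HIS1 alone among 8. Glycolysis had TPI1 alone among 18 and translation factors TEF2 alone among 5. HIS1 summits lay 220 and 224 bp upstream with DTT and 248 bp upstream at 6 h in BYTA. For cell wall genes the number was 0 of 18 listed, for gluconeogenesis and acetate use 0 of 10, for middle meiosis and spore wall 0 of 3, and for early meiosis 0 genes were listed in any position.

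The lists differed in how far upstream their summits lay even when shared windows were kept. With a median distance per gene over all its listed summits, 10 of 10 listed ER protein folding genes, 9 of 10 glycosylation genes and 5 of 5 genes of ER to Golgi traffic lay within 250 bp, against 140 of 551 listed genes (25.4%). The exception among glycosylation genes was PSA1, encoding GDP-mannose pyrophosphorylase, at 479 to 495 bp. Cell wall, glycolysis, gluconeogenesis and ergosterol genes had 0 of 18, 0 of 18, 0 of 10 and 0 of 5 within 250 bp. Among other lists, ribosomal proteins had 6 of 9 within it, and phospholipid synthesis and ER shape 5 of 7. Heat shock had 5 of 12, iron and copper uptake 4 of 13, ER-associated degradation 1 of 2 and amino acid synthesis 1 of 8. Translocation into the ER had 2 of 3, with SEC61 beyond the limit at 311 to 313 bp, and UPR signalling 1 of 1. General stress and peroxide defence and transcription regulators had 2 of 9 each. Translation factors had 1 of 5, and middle meiosis and spore wall 1 of 3. Median distances were 95 bp for ER to Golgi traffic, 117 bp for ER protein folding and 151.5 bp for glycosylation. They were 392.5 bp for glycolysis, 455 bp for gluconeogenesis, 476 bp for ergosterol synthesis and 494.5 bp for the cell wall, and 340.5 bp for all listed genes. No test was made of these lists, since they and the summits were chosen with results of these data known.

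**Figure D5:**
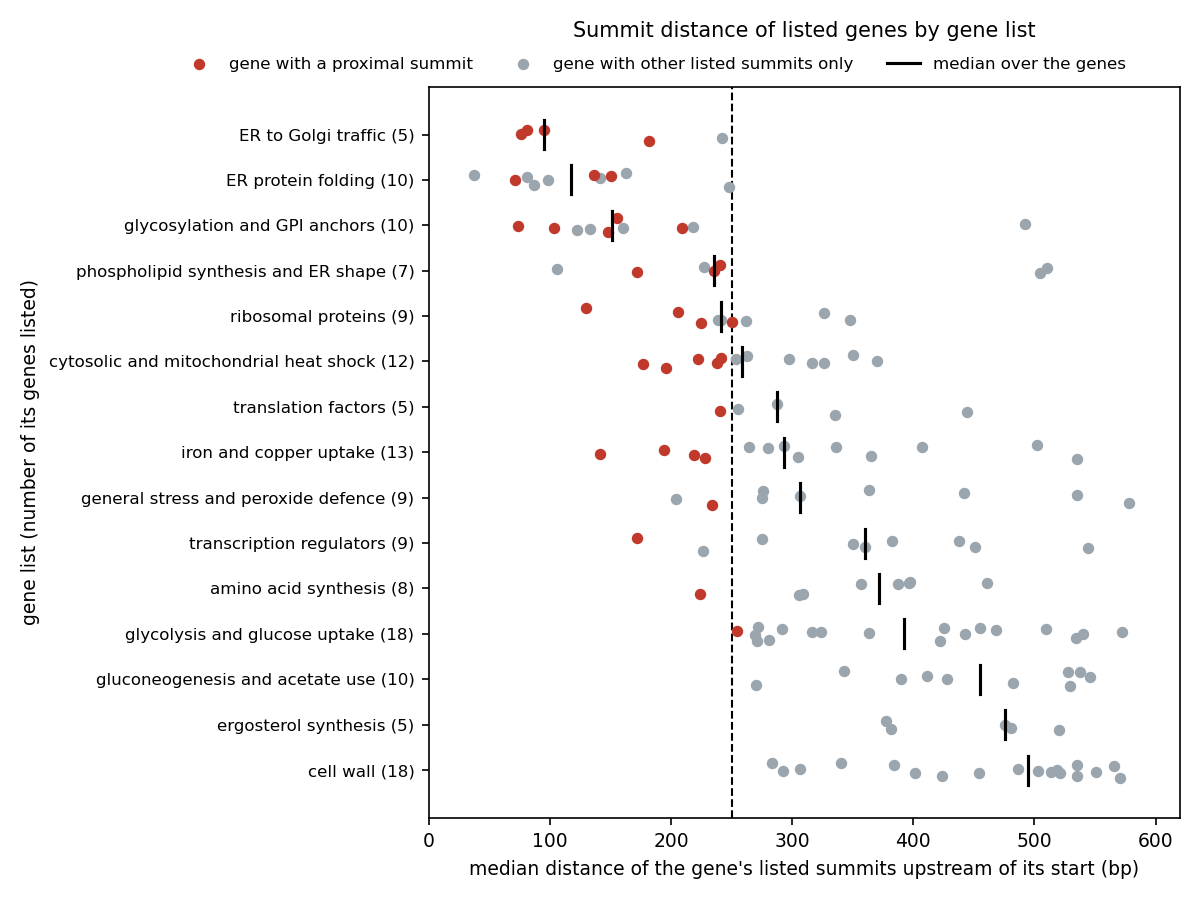
Median distance of each gene's listed summits upstream of its start in bp (x axis), shared windows included, for lists with at least 5 listed genes (y axis, number listed in brackets). Each dot is 1 gene, red where it has a proximal single-gene summit, black bars are medians and the dashed line is the 250 bp limit. ER to Golgi traffic, ER protein folding and glycosylation have medians of 95, 117 and 151.5 bp, while cell wall genes have a median of 494.5 bp and no gene left of the line.

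What lies upstream of the proximal genes differs from the genome at large, and the choice of summits fixes part of this. In R64, 64 of 87 proximal genes with a systematic name (73.6%) have an upstream neighbour transcribed in the same direction. The share was 66.3% for the 246 genes with single-gene summits farther upstream, 3.21% for the 218 genes with summits in more than 1 window, and 48.3% for 5992 protein-coding genes. Leaving out shared windows removes most divergent promoters. The 89 genes are spread over all 16 chromosomes, with 14 on chromosome IV and 11 on chromosome XIII.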

How the data were processed

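Each of the 14 ChIP libraries came with 1 deposited table that pairs peak summits with promoter windows and genes, per the file headers. Summit and window positions are SK1 coordinates of an assembly not given in the sources used here. The score of each summit was deposited by the authors, with no type in the file headers. The submitters' processing notes name the tools ChIPseeker 1.44.0, MACS2 2.2.9.1, Bowtie2 2.3.4.1 and SAMtools 1.7 but not what each did. Tables were tied to libraries by the library name in the peak names, so peaks had been called per library. Windows were 600 bp wide.

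From these, distances, within-library score ranks and percentiles, and summits found again within 100 bp were computed (Python 3.11.15, pandas 2.3.3, numpy 2.4.6, scipy 1.17.1). Libraries with fewer than 3 proximal or 3 other summits were left out of rank and recurrence comparisons. Tests were exact permutation tests over libraries or states, checked on simulated data, with a threshold of 0.05. Gene names are those of the tables, and RefSeq R64 held all 87 systematic names of proximal genes. Promoter sequences were not used here.

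Members, lists and tests were chosen with earlier results of these data known. Named genes are the 15 proximal in most libraries, the 10 best in both libraries with DTT and at 6 h in BYTA, up to 10 in each of the other 5 states, all ER folding members, up to 3 of each other list, and summits at the ends of the range and at the limit. Further genes, which include remaining members of small lists and genes beyond the limit, were picked with their values in view. The alternatives tried were limits of 200 and 300 bp, scores of at least 500, assigning shared summits to the nearest gene, leaving out libraries, and the replicate number as a block.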

Additional observations from a re-analysis of the deposited data

How the results depend on the processing

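The difference in share between states (76.7% of the sum of squares, exact permutation test, p = 0.0556) passed the threshold with a limit of 300 bp (82.5%, p = 0.0274) and with shared summits given to the nearest gene (76.5%, p = 0.0351). It also passed without replicate 1 at 21 h in BYTA (84.0%) and without replicate 1 or 2 at 8 h in sporulation medium (84.0% and 85.6%), and leaving out any 1 library gave 72.4% to 85.6% (exact p 0.0235 to 0.139). With 200 bp it was 49.5% (exact permutation p = 0.394), and with scores of at least 500 it was 46.2% (exact p = 0.442). Of single-gene summits alone, a denominator prompted by the values and given as description, it was 91.6%, and 97.5% with 300 bp. The rank difference of -10.9 points turned to 1.17 with 200 bp, 13.2 with the nearest gene and 7.09 against farther single-gene summits only, and was -15.3 to -8.06 without 1 library. The recurrence difference of -4.85 points turned to 10.1 with the nearest gene and 12.7 against farther single-gene summits only; leaving out a library gives no value, since both are needed. The cause of these turns was not tested.

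Genes in both libraries with DTT were 21 with 200 bp, 57 with 300 bp and 61 with the nearest gene, in place of 36, and 41 to 61 in 1 replicate alone. At 6 h in BYTA they were 15 with the nearest gene in place of 9, and 9 to 40 in 1 replicate alone. At 21 h in BYTA they were 1, 5 and 8 under those 3 settings in place of 3, and 4 to 6 in 1 replicate alone. In sporulation medium 1 gene became 3 after 5.5 h and 5 at both later times with the nearest gene. It became 0 after 5.5 h and after 6 h 45 min with scores of at least 500. In 1 replicate alone they were 1 to 4 after 5.5 h, 1 after 6 h 45 min and 1 to 3 after 8 h. In vegetative cells 2 became 1 with 200 bp and 5 with the nearest gene, and 2 to 3 in 1 replicate alone. List members fell to 16 of 33 when both libraries were required.

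Replicate numbers did not pair the samples in every pair of states. For each gene and state, the percentile in replicate 1 was taken minus the mean of both libraries, with unlisted genes set to 0. Between states, over 21 pairs, these deviations had correlations of -0.109 to 0.773. Of these correlations 7 were over 0.1, all among 21 h in BYTA, the sporulation times and vegetative cells. They were 0.675 to 0.773 among the 3 sporulation times, 0.116 to 0.438 between these and 21 h in BYTA, and 0.105 between 21 h in BYTA and vegetative cells. Replicate 2 had the longer list at 21 h in BYTA and at all 3 sporulation times. With unlisted genes at 0, list length enters these correlations, and its part was not tested. With the replicate block the share test gave 76.7% (exact p = 0.104), the rank difference -10.5 and the recurrence difference -5.08. Motifs in promoters, planned with 2 window lengths, were not run, as promoter sequence was not used here. Short lists of 4 to 23 summits in the later and vegetative libraries limit every comparison with them.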
